A study of Mus musculus with 6 samples.

Results

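The 8 genes described here belong to the interferon response and to antigen presentation: Irf1, Nlrc5, B2m, H2-K1, H2-D1, Tap1, Psmb8 and Cd74. They are picked out by name, in a list drawn up with earlier results of these data known, and were found by Ensembl identifier among the 31319 genes of the count matrices. RNA was counted in 38154 single nuclei of organoids, which are epithelial cultures grown from crypts of the jejunum, part of the small intestine, of C57BL/6 mice aged 8 to 12 weeks. Organoids were grown in medium conditioned by quiescent mouse embryonic fibroblasts (QCM) or by senescent ones (SCM), with 3 samples per medium. In both groups the conditioned medium was concentrated and mixed with organoid growth medium, so that QCM, not unconditioned medium, was the control. The fibroblasts were made quiescent by low serum, or senescent by X-rays or doxorubicin, and which of these agents was used for these samples is not given in the sources used here. Nothing in the labels says that samples came from separate mice, so p-values measure the spread between these samples, which may be technical.

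Class I molecules are made by nearly all cells with a nucleus and show peptides from inside the cell to CD8 T cells. A heavy chain, here H2-K1 or H2-D1, pairs with the small chain beta-2-microglobulin (B2m). Peptides are cut by the proteasome, whose subunit Psmb8 replaces a standard one under interferon, and are pumped into the endoplasmic reticulum by a transporter that contains Tap1. Irf1 is a transcription factor induced by interferon-gamma and Nlrc5 is a co-activator of class I genes, while Cd74 is the invariant chain that guides class II molecules and is induced in epithelium by interferon-gamma.

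On the mm10 (GRCm38) genome, in the GENCODE M21 annotation, all 8 are protein-coding. B2m is at chr2:122147686-122153083, Irf1 at chr11:53770014-53778374 and Nlrc5 at chr8:94434356-94527272. H2-K1 (chr17:33996017-34000347), Tap1 (chr17:34187553-34197225), Psmb8 (chr17:34197721-34201454) and H2-D1 (chr17:35262730-35267499) lie in the major histocompatibility complex. The start of Tap1 overlaps that of Psmb9 (chr17:34181987-34187764), which runs the other way, and whether counting used the strand is not given in the sources used here. Reads shared by near-identical class I heavy chain genes could be lost or split in the counting, so that values of H2-K1, H2-D1 and the H2-Q genes are uncertain to that extent.

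RefSeq (GRCm38.p6) promoter sequences were matched for 6 of the 8 members, and the 250 bases before the start are shown for 3 of them because the differences between media below turn on these genes. Capitals mark letters that match GAANNGAAA, as bound by interferon regulatory factors, TTCNNNGAA, the gamma-activated site, GGGNNTTCC, as in kappa B sites, TGACG, the core of the X2 box of class I promoters, or CCAAT, searched on both strands. No 2 of these stretches overlap in the sequences shown.
B2m, chr2:122147437-122147686, plus strand: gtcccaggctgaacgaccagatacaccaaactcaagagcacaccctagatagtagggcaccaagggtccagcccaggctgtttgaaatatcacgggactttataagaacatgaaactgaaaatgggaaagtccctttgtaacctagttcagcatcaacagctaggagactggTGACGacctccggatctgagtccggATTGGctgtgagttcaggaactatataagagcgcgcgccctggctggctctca
H2-K1, chr17:34000348-34000597, minus strand: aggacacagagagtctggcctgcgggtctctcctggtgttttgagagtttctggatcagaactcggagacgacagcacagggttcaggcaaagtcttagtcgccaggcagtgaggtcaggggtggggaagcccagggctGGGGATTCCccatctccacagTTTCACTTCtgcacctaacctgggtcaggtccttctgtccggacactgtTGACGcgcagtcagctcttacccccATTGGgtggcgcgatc
Irf1, chr11:53769764-53770013, plus strand: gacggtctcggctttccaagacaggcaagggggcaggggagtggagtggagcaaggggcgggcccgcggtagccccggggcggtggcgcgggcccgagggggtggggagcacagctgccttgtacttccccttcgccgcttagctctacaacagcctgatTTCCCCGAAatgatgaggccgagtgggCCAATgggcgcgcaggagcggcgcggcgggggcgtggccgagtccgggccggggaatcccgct
H2-K1 and H2-D1 share a stretch of 30 bases with a kappa B and an interferon regulatory factor match, in which 29 bases are alike.
H2-K1, chr17:34000429-34000458, minus strand: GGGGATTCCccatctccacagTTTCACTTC
H2-D1, chr17:35262923-35262952, plus strand: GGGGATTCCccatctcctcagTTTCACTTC
In H2-K1 the stretch began 111 bases before the start, taking the RefSeq start nearest to that of GENCODE, and in H2-D1 171 bases before it, which is inside the first exon of a longer GENCODE transcript. The B2m window held TGACG 78 bases and CCAAT, on the other strand, 53 bases before the start, and no match to the kappa B or GAANNGAAA letters. It also held gaaactgaaa and gggaaagtccc, left unmarked because these patterns ask for other letters or spacing. The lack of a match thus does not show that a site of that kind is missing. The Irf1 window held 1 match to TTCNNNGAA, 90 bases before the start. Among 32851 promoter windows of this length, GAANNGAAA was found in 6.31%, TTCNNNGAA in 7.02%, GGGNNTTCC in 4.98% (1635 windows), TGACG in 17.8% and CCAAT in 33.8%. A match is a description of the letters and does not show that a factor binds.

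The libraries differed in ways that bear on every result. Totals ran from 4071926 UMIs (unique molecules counted) in 430 nuclei of SCM replicate 1 to 41035733 UMIs in 3791 nuclei of QCM replicate 1, and the other samples held 5026 to 10833 nuclei. Of the 430 nucleus barcodes of SCM replicate 1, 175 (40.7%) were also barcodes of QCM replicate 1 (4.62% of its barcodes), while other pairs of libraries shared up to 36. The expression profiles of nuclei with the same barcode in both libraries were no more alike than those with other barcodes (median r 0.386 and 0.389). Genes of ribosomal proteins were taken by name, as symbols that start with Rpl or Rps and a digit. This rule also takes in pseudogenes and kinase genes named so, and leaves out names such as Rpsa. They took 14.2%, 4.96% and 10.4% of the UMIs of the QCM samples, in order of replicate number, and 4.22%, 2.64% and 7.30% of those of SCM. Epithelial markers summed to 3211 to 5053 counts per 1000000 (CPM) in QCM and 3465 to 4169 CPM in SCM, with 8 of 8 seen in every sample. Of 12 immune markers, 10 were in the matrices, 2 of these had a UMI in every sample, and they summed to 3.95 to 8.23 CPM in QCM and 4.17 to 6.97 CPM in SCM. Of 8 fibroblast markers, 7 were in the matrices, 2 had a UMI in every sample, and they summed to 1.73 to 5.62 CPM in QCM and 2.01 to 3.42 CPM in SCM. No marker of either list that was in the matrices was at 0 over all samples.

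The comparison of the media asked whether the secretions of senescent fibroblasts go with other levels of these genes in the epithelium. B2m and H2-K1 were lower in each SCM sample than in each QCM sample, and Irf1 was higher, but no member passed the test. UMI counts were summed per sample and compared with the edgeR quasi-likelihood test over all 19046 genes that passed its filter on low counts, which included all 8 members. It called 0 genes at an adjusted p under 0.05 (0% of genes), with 866 genes (4.55%) at an unadjusted p under 0.05, and DESeq2 called 20 genes (0.105%) and no member. All fold changes below are log2 of SCM over QCM, with TMM normalization, which set the median of all genes at -0.01. Levels in CPM are given per gene and are not compared between genes.

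B2m, the chain that all class I molecules share, stood at 220.1, 69.4 and 86.6 CPM in QCM and at 47.2, 50.5 and 69.0 CPM in SCM, here and below in order of replicate number. QCM replicate 1 lay far above the others, and the nearest samples of the 2 media, QCM replicate 2 and SCM replicate 3, were almost level. The mean was 125.4 ± 82.4 CPM (SD, n = 3) in QCM and 55.5 ± 11.7 CPM (SD, n = 3) in SCM. The edgeR estimate was -1.41 ± 0.51 (SE), with an adjusted p of 0.927.

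H2-K1, a heavy chain, stood at 385.7, 194.3 and 265.4 CPM in QCM and at 149.3, 177.2 and 178.4 CPM in SCM. The SCM samples lay close together and below all QCM samples, which were spread widely with replicate 1 on top. The means were 281.8 ± 96.7 CPM (SD, n = 3) in QCM and 168.3 ± 16.5 CPM (SD, n = 3) in SCM, and edgeR estimated -0.95 ± 0.33 (SE; adjusted p = 0.927).

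H2-D1, the other heavy chain, stood at 119.2, 55.3 and 56.4 CPM in QCM and at 62.9, 55.6 and 49.3 CPM in SCM. Here the media overlapped, and QCM replicate 1 alone stood out. The edgeR estimate was -0.69 ± 0.38 (SE; adjusted p = 0.927).

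Irf1, the interferon-induced transcription factor, went the other way. It stood at 9.85, 8.03 and 8.43 CPM in QCM and at 13.8, 12.5 and 10.5 CPM in SCM, with means of 8.77 ± 0.95 and 12.2 ± 1.65 CPM (SD, n = 3 each). All SCM samples were above all QCM samples on this scale. After TMM scaling the groups overlapped, at 12.0, 7.66 and 8.62 in QCM and 12.7, 11.6 and 10.4 in SCM, and edgeR estimated 0.28 ± 0.25 (SE; adjusted p = 0.929). B2m also overlapped after TMM scaling, with 66.2 in QCM replicate 2 and 68.3 in SCM replicate 3, whereas H2-K1 did not, with a lowest QCM value of 185.3 and a highest SCM value of 176.7.

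The other members were sparse. Tap1, part of the peptide pump, had 523 UMIs in all, and stood at 4.58, 3.09 and 3.11 CPM in QCM and 5.89, 3.90 and 3.47 CPM in SCM, overlapping between media. Psmb8, the inducible proteasome subunit, had 212 UMIs, 124 of them in QCM replicate 1, and stood at 3.02, 0.78 and 1.61 CPM in QCM and 1.72, 0.43 and 0.78 CPM in SCM. Nlrc5, the class I co-activator, had 79 UMIs, at 0.51, 0.21 and 1.56 CPM in QCM and 0, 0.53 and 0.41 CPM in SCM. Its count of 0 in SCM replicate 1 allows a level of up to 0.737 CPM (3 counts), which covers counting error only. Cd74, the class II invariant chain, had 90 UMIs, at 0.58, 0.33 and 1.41 CPM in QCM and 0.98, 0.77 and 0.37 CPM in SCM. For all 4 genes the media overlapped, and the estimates were 0.06 ± 0.37 for Tap1, -1.31 ± 0.73 for Psmb8, -1.09 ± 0.88 for Nlrc5 and -0.39 ± 0.67 for Cd74 (SE). The edgeR adjusted p of these 4 genes ran from 0.927 (Psmb8) to 0.990 (Tap1).

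**Figure D1:**
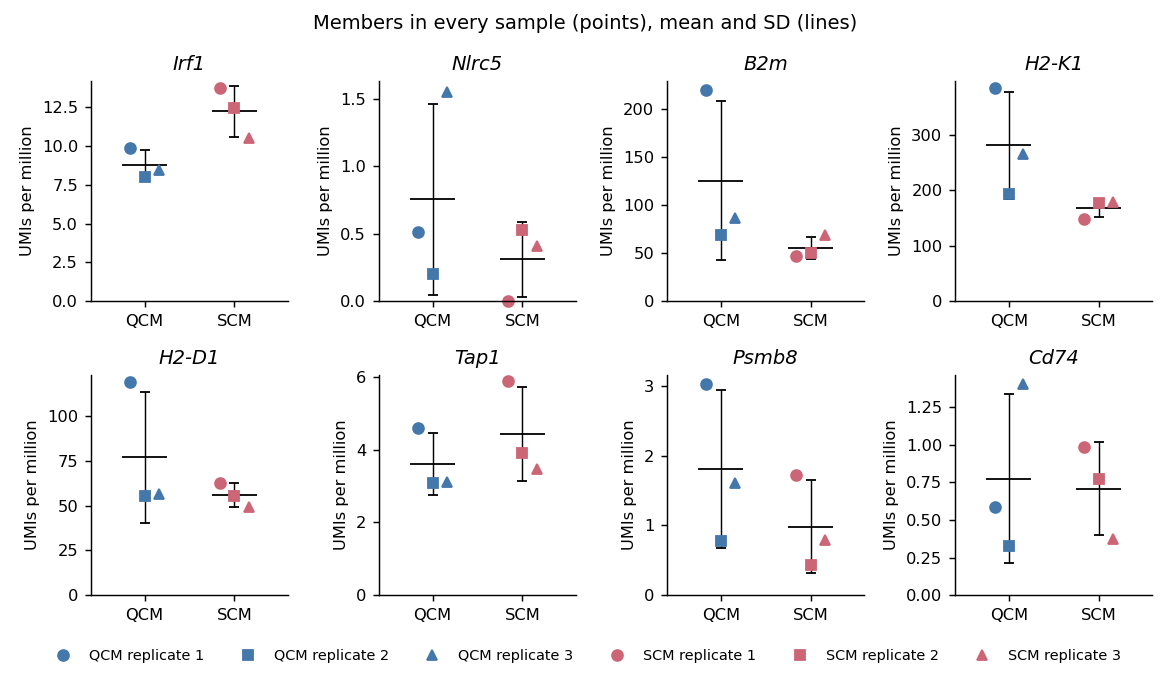
Level of each member in every sample, in UMIs per 1000000 UMIs, for QCM (blue) and SCM (red), with a symbol per replicate number and the mean and SD as lines. B2m and H2-K1 were lower in all SCM samples, Irf1 was higher, and QCM replicate 1 was the highest sample for B2m, H2-K1, H2-D1 and Psmb8.

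Over the 8 members, 2 had estimates above 0 and 6 below, and 2 (B2m and H2-K1) had an unadjusted p under 0.05, both lower, against 3.08% of all genes in that direction and 1.46% in the other. The groups did not overlap for 2 members that were lower in SCM and 1 that was higher, against 2.09% and 4.99% of all genes. The median estimate of the members was -0.82, against -0.01 over all genes. Without QCM replicate 1 it was -0.47, with 6 members still below 0 and none at an unadjusted p under 0.05, and with the ribosomal share as covariate it was 0.011, with 4 members below 0.

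These differences moved with QCM replicate 1 and with the ribosomal share. That share was itself lower in SCM than in QCM at each replicate number. The share and the medium thus cannot be fully told apart in these fits. Without QCM replicate 1 the estimate was -0.52 for B2m, -0.49 for H2-K1 and -0.05 for H2-D1, and 0.52 for Irf1. The Irf1 estimate was 0.16 without QCM replicate 2. With the ribosomal share of each sample as a covariate it was -0.19 for B2m, -0.23 for H2-K1, 0.066 for H2-D1, 0.10 for Psmb8 and 0.55 for Irf1. Without SCM replicate 1 the values were -1.29 for B2m, -0.85 for H2-K1, -0.76 for H2-D1 and 0.22 for Irf1, and without replicate number 1 of both media they were -0.42, -0.42, -0.13 and 0.43. Without the shared barcodes they were -1.41, -0.92, -0.66 and 0.28. Cluster 1, where B2m was highest, held 43.2% of the nuclei of QCM replicate 1 and 13.7% to 21.9% of those of the other samples, and without its nuclei the estimates were -1.15, -0.74, -0.49 and 0.34. Among these fits, the B2m and H2-K1 estimates were smallest in size with the ribosomal share in the fit. Next came those without replicate number 1 of both media, and then those without QCM replicate 1. What lies behind these changes was not tested. In a limma fit on log2(CPM + 1) with 9 clusters weighted equally, B2m was at -0.92. Among the sparse members, Psmb8 was at -0.49 without QCM replicate 1, and Nlrc5 was at -0.20 without QCM replicate 3 and at -0.35 with the ribosomal share in the fit.

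The summed markers of the cell types of the epithelium were also read in each sample. Paneth markers summed to 518 to 2634 CPM in QCM and 335 to 582 CPM in SCM, and enterocyte markers to 942 to 4217 CPM and 389 to 1520 CPM. Goblet markers summed to 634 to 1329 CPM in QCM and 384 to 649 CPM in SCM, and enteroendocrine markers to 129 to 198 CPM and 40.5 to 129 CPM. Each of these 4 sums overlapped between media, and QCM replicate 1 was the highest sample for the Paneth, enterocyte and goblet sums. Stem cell markers stood at 1456 to 2527 CPM in QCM and 1667 to 2697 CPM in SCM, which overlapped, as did those of tuft cell markers. The part of these cell types in the member differences was not tested beyond the fits within clusters and without cluster 1. In these sums fewer cells of a type and less RNA per cell cannot be told apart.

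**Figure D2:**
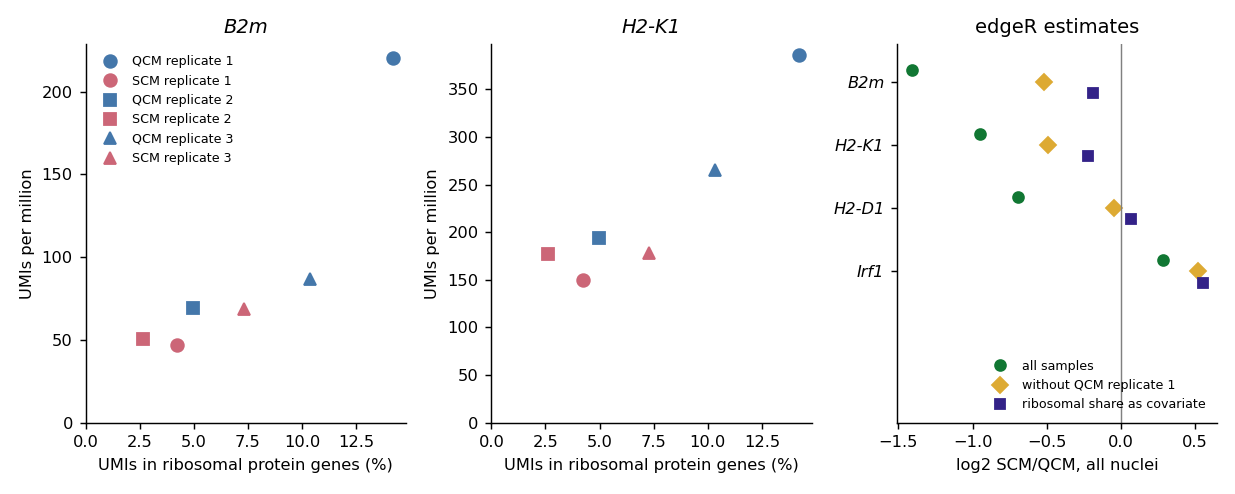
Left and middle, level of B2m and H2-K1 (UMIs per 1000000 UMIs) against the percentage of UMIs in ribosomal protein genes, 1 point per sample. Right, edgeR log2 SCM/QCM estimates over all nuclei with all samples, without QCM replicate 1 and with the ribosomal share as covariate, where B2m moved from -1.41 to -0.52 and -0.19.

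The share of nuclei with a UMI of a member was compared at a fixed depth of 1000 UMIs per nucleus, since the median depth ran from 1578 to 8260 UMIs, and 3179 shallower nuclei (0, 490 and 1876 of QCM and 106, 228 and 479 of SCM) were left out. At this depth H2-K1 was seen in 34.9%, 19.7% and 22.4% of nuclei in QCM and in 15.2%, 15.4% and 16.3% in SCM, with no overlap. B2m was seen in 22.4%, 7.71% and 8.51% of nuclei in QCM and in 8.44%, 5.71% and 7.21% in SCM, where SCM replicate 1 lay between the lower QCM samples. H2-D1 was seen in 12.3%, 5.84% and 5.27% in QCM and 7.02%, 5.06% and 4.82% in SCM, which overlapped. Irf1 was seen in 0.925%, 0.729% and 0.884% in QCM and in 0.949%, 1.18% and 1.03% in SCM, with all SCM samples above but SCM replicate 1 by little. Tap1 was seen in 0.279% to 0.619% of nuclei in any sample, and Nlrc5, Psmb8 and Cd74 in at most 0.338%. At full depth the shares reached 86.5% for B2m, and ran from 31.6% to 95.8% for H2-K1. Nearly all cell types make class I molecules, so no cluster could serve as a background that lacks them.

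Within clusters the question was whether the difference between media is found inside groups of like nuclei. The deposited clusters are numbered 0 to 14 and were described with marker genes: cluster 6 was goblet-like, 7 fetal-like, 8 enterocyte-like, 9 and 10 enteroendocrine-like and 11 tuft-like, and the rest stay unnamed here. Cluster 6 had 6 goblet markers past the limit and also 3 Paneth markers, none of the latter among its leading 10 genes. B2m was estimated lower in SCM in 13 of the 13 clusters that could be fitted, from -1.53 in cluster 7 to -0.78 in cluster 0, against 50.7% of all gene and cluster pairs with a lower estimate. H2-K1 was estimated lower in 13 of 13, from -1.16 in cluster 11 to -0.41 in cluster 9. H2-D1 was estimated lower in 12 of 13, from -1.59 in cluster 11, with 0.07 in the enteroendocrine-like cluster 9. Clusters of 1 sample share a library, so these counts are not independent repeats. An unadjusted p under 0.05 in the lower direction was found in 8 clusters for B2m, 10 for H2-K1 and 5 for H2-D1, against 4.55% of the 130109 pairs tested, and edgeR called 0 pairs (0%) against 7490 at an unadjusted p under 0.05 in either direction, with a lowest adjusted p of 0.813 among members. DESeq2 called 6 pairs (0.00461%) and no member.

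Irf1 was tested in 9 clusters and was estimated higher in SCM in 8 of them, up to 0.56 in the fetal-like cluster 7 and 0.51 in the goblet-like cluster 6, and at -0.55 in cluster 9. Without QCM replicate 2 it was higher in 6 of 9 clusters, and without QCM replicate 3 in 7 of 9. With all samples none had an unadjusted p under 0.05, against 1.20% of pairs in the higher direction. Tap1 passed the filter in 3 clusters, with estimates from -0.32 to 0.05, and Nlrc5, Psmb8 and Cd74 passed it in 0 clusters.

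With the ribosomal share of the cluster in each sample as a covariate, the median estimate over the 13 clusters was -0.20 for B2m (10 clusters lower), -0.30 for H2-K1 (10 lower) and -0.22 for H2-D1 (10 lower), against -1.18, -0.97 and -0.82 without it. Without QCM replicate 1 the medians were -0.42 for B2m (12 of 12 lower), -0.59 for H2-K1 (12 of 13) and -0.24 for H2-D1 (9 of 11). The call also depended on the low-count filter: with every gene kept, edgeR called 12 of 103 member pairs, all lower in SCM (8 of B2m, 3 of H2-K1 and 1 of H2-D1), against 0.849% of all pairs in that direction. That share is over 318724 pairs, of which 130109 are tested with the filter. It thus includes many low-count pairs and is no like background for these 3 genes.

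**Figure D3:**
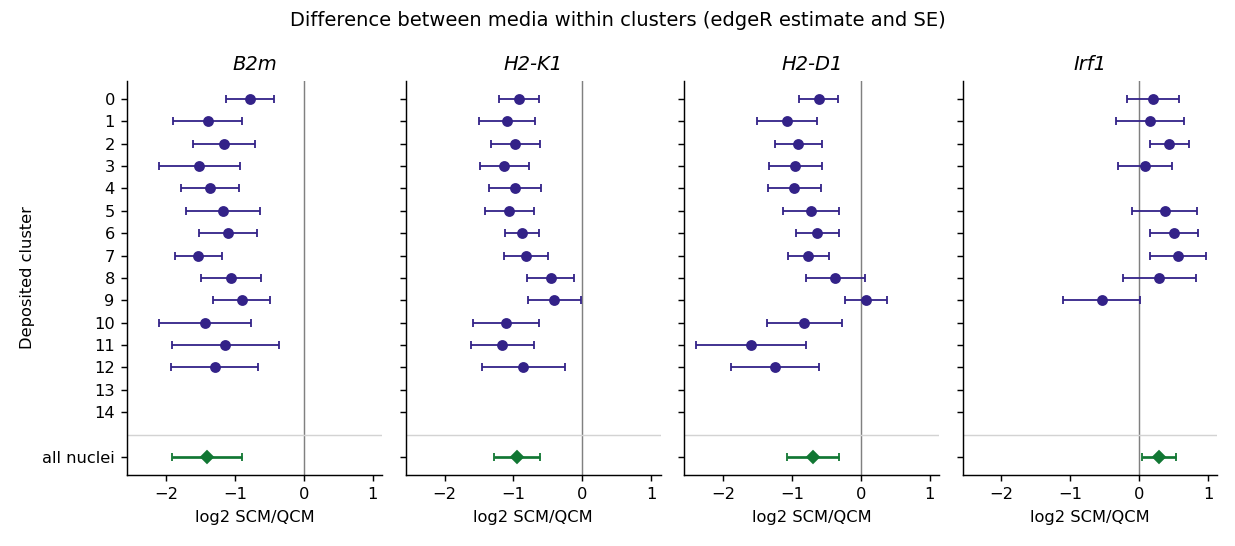
edgeR log2 SCM/QCM estimate (points) with its SE (bars) for 4 members in each deposited cluster that could be tested, and over all nuclei (diamonds). B2m and H2-K1 lie below 0 in all 13 clusters, H2-D1 in 12, and Irf1 above 0 in 8 of 9.

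Whether the difference of a cluster differed from that of the other nuclei of the same samples was tested with a cluster by medium term. Of 80 member and cluster pairs, 0 were called by edgeR, with an adjusted p of 1 in all of them and 3 at an unadjusted p under 0.05, against 4.30% of 209737 pairs. Over all genes 20 pairs were called (0.00954%).

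Levels across the clusters are a description, because the clusters were made from the genes of the same nuclei. Each level was set against the other nuclei of the same sample, over samples that held at least 20 of its nuclei, which left out SCM replicate 1 for most clusters. B2m was highest in the unnamed cluster 1, at 0.73 ± 0.24 on the log2 scale (SD) above the other nuclei and above them in 6 of 6 samples, followed by cluster 4 at 0.48 ± 0.32 in 6 of 6. Cluster 1 had both enterocyte and Paneth markers, with 5 and 3 past the limit. H2-K1 was highest in the fetal-like cluster 7, at 0.69 ± 0.33 in 5 of 5 samples, and in cluster 1, at 0.46 ± 0.19 in 6 of 6.

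H2-D1 was also highest in cluster 7, at 0.92 ± 0.19 in 5 of 5 samples, next to cluster 8 at 0.21 ± 0.38 in 4 of 5. The peptide pump gene Tap1 was likewise highest in cluster 7, at 1.09 ± 0.41 in 5 of 5 samples, with a mean of 6.81 ± 0.88 CPM. Irf1 was highest in the goblet-like cluster 6, at 0.62 ± 0.49 in 4 of 5 samples, and in cluster 7, at 0.42 ± 0.28 in 4 of 5. The heavy chains, Tap1 and Irf1 thus ranked first or second in cluster 7, and B2m was at 0.18 ± 0.34. Of the 9 fetal markers listed, 5 were past the limit in cluster 7. All 9 together summed to 47.9 to 98.9 CPM in QCM and 163 to 598 CPM in SCM, and Clu had the most UMIs of them in every SCM sample.

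The lowest levels of B2m, H2-K1 and H2-D1 were in cluster 14, at -1.85 ± 0.40, -1.30 ± 0.66 and -1.39 ± 0.43. This cluster of 92 nuclei had a median of 39433 UMIs per nucleus, against 1572 to 2557 in the other clusters, and 2 samples with enough nuclei. Irf1 was not low there, at 0.35 ± 0.39 above the other nuclei in 2 of 2 samples. By mean CPM, the ranges over samples of neighbours in the order of clusters overlapped in 14 of 14 steps for every member. By the ratio, the step between neighbours was within the larger of their SDs for 14 of 14 steps of Irf1 and Tap1, 13 of 14 of B2m and H2-K1, and 11 of 14 of H2-D1. Nlrc5, Psmb8 and Cd74 had too few UMIs for an order.

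**Figure D4:**
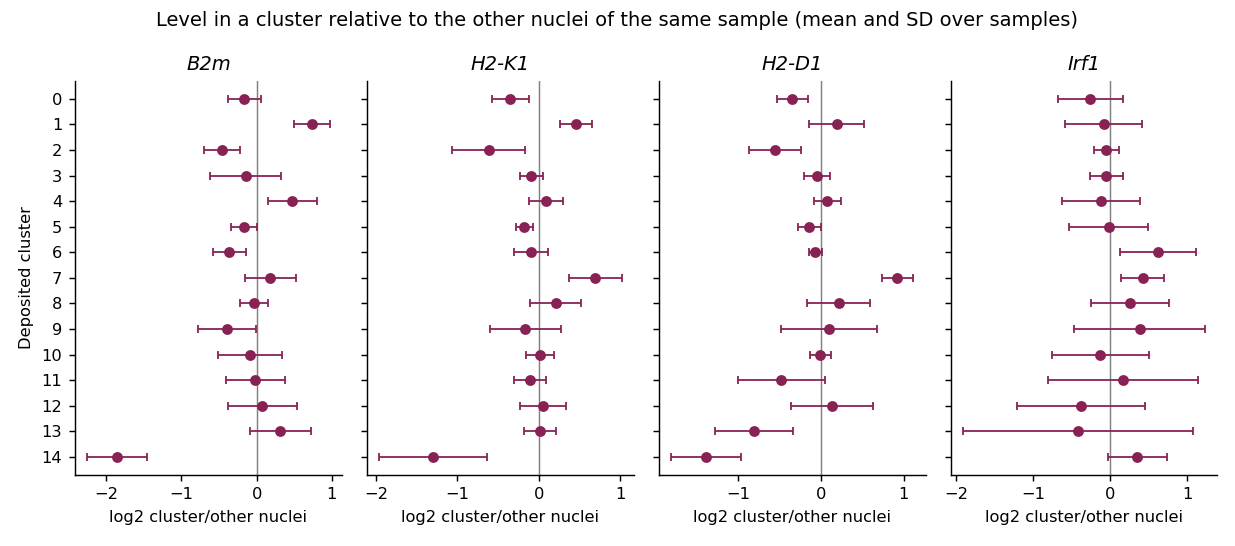
Level of 4 members in each deposited cluster relative to the other nuclei of the same sample, as the mean log2 ratio (points) and SD (bars) over samples that held at least 20 of its nuclei. H2-K1 and H2-D1 stand highest in cluster 7, B2m in cluster 1, and all 3 lowest in cluster 14, where Irf1 does not.

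Across the 15 clusters the levels of B2m and H2-K1 went together (Pearson r 0.88 of log2 CPM), as did those of H2-K1 and H2-D1 (0.78), whereas r was 0.53 for B2m and H2-D1, -0.36 for Irf1 and B2m, -0.10 for Irf1 and H2-K1 and 0.38 for Irf1 and H2-D1. The clusters share libraries and differ in depth, so these are descriptions. The deep cluster 14, where B2m, H2-K1 and H2-D1 were all lowest, is among them and can raise r between these genes. The values of r without it were not computed. Among 10239 genes at a mean of at least 10 CPM, those most like B2m included Actg1 (r 0.98), a cytoplasmic actin gene, and those most like H2-K1 included Actb (0.97), the other cytoplasmic actin gene. H2-D1 was most like Ctsd (0.93), which encodes the lysosomal protease cathepsin D, and Rflnb (0.92), and Irf1 was most like Acox3 (0.94), an enzyme of peroxisomal fatty acid oxidation, and Tbc1d17 (0.92). Tap1 was most like Rassf1 (0.86) and Tpra1 (0.84). Nlrc5, Psmb8 and Cd74 had 0 UMIs in 1 or 2 clusters each, and the genes most like them are not read here. Of the 16 genes found by this rule, those of the sparse members included, 8 were kept with Spearman correlation and 2 with counts summed over samples.

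Cd74 is also made by immune cells that present antigen, so its UMIs were followed by nucleus. They lay in 80 of 38154 nuclei (0.210%) of 13 clusters, 72 of them with a single UMI and at most 4 in 1 nucleus. These nuclei were deeper than the others (median 5276 against 2137 UMIs). Ciita, the regulator of class II genes, had a UMI in 3 of the 80 and in 171 other nuclei, H2-Eb1 in 4 and 63, and H2-Aa and H2-Ab1 in 0 of the 80 and in 6 and 42 others. The leukocyte gene Ptprc was seen in 0 of the 80 and in 23 other nuclei, and the macrophage genes Csf1r and Cd68 in 4 and 3 of the 80 and in 108 and 284 others. The myeloid genes Lyz2, Itgax and Itgam were seen in 0 of the 80 and in 39, 8 and 13 others, Adgre1 in 1 and 41, and Cd52 in 2 and 154. The T cell gene Cd3e and the B cell gene Cd79a were seen in 0 of the 80 and in 11 and 32 others. Of the 80 nuclei, 1 held UMIs of at least 2 of these 4 class II and Ciita genes and 5 held 1 of them. The others are all the rest of the 38154 nuclei, so the paired counts are not shares. Among only 80 nuclei, a single nucleus with a UMI gives a higher rate than that of the others for any gene listed here. Rates per nucleus thus cannot show whether these genes go with Cd74. Ciita, H2-Eb1, Csf1r, Cd68, Adgre1 and Cd52 each rest on 1 to 4 of the 80 nuclei, and the part of the greater depth was not tested.

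A wider list of 81 interferon and antigen presentation genes was read beside the members. Of these 75 were in the matrices and 63 were tested, 0 were called by edgeR (lowest adjusted p 0.927), and 4 had an unadjusted p under 0.05, all lower in SCM, against 3.08% of all genes in that direction. The groups did not overlap for 5 of the 63 that were lower and 3 that were higher, against 2.09% and 4.99% of all genes. Of the 63, 24 were estimated higher and 39 lower, where 48.6% of all genes were estimated higher, and the median estimate was -0.18 against -0.01. The parts of the list were not tested against each other. Of 11 peptide loading genes 10 were estimated lower and 1 higher (median -0.37, 2 lower at an unadjusted p under 0.05), and of 12 other class I heavy chains 9 lower and 3 higher (median -0.78, 1 lower). Of 7 class II genes 6 were lower (median -0.47). On the interferon side, 6 of 9 interferon-stimulated genes (median 0.26) and 4 of 5 nucleic acid sensors (median 0.28) were estimated higher, as were 7 of 13 kinases and signal transducers (median 0.03), while 4 of 6 receptors were estimated lower (median -0.13).

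QCM replicate 1 was the highest sample for 8 of the 11 peptide loading genes, 6 of the 12 heavy chains and 4 of the 7 class II genes, and for 2 of 6 receptors, 1 of 9 interferon-stimulated genes and 0 of the sensors, kinases and signal transducers. These counts use CPM before TMM scaling. The share over all genes was not computed, so the counts have no background to be read against. Psme1, an activator subunit of the proteasome chosen here after its values were seen, stood at 90.2, 29.5 and 37.5 CPM in QCM and 27.3, 27.9 and 28.8 CPM in SCM. Without QCM replicate 1, 7 of 11 peptide loading genes (median -0.03), 6 of 12 heavy chains (median -0.10) and 4 of 7 class II genes (median -0.10) were estimated lower, and without replicate number 1 of both media 8 of 11 (median -0.23), 7 of 12 (median -0.08) and 5 of 6 tested (median -0.09). The receptors turned to 4 of 6 higher without QCM replicate 1 (median 0.09) and 5 of 6 higher without replicate number 1 of both media (median 0.04). Over the whole list, 40 of 66 genes tested were estimated higher and 26 lower without QCM replicate 1 (median 0.08). More genes passed the filter there than with all samples. At an unadjusted edgeR p under 0.05, 1 was higher, a nucleic acid sensor, and 0 were lower. With the ribosomal share as covariate, 33 of 63 were estimated higher and 30 lower (median 0.04). Of the interferon-stimulated genes, 6 of 9 were estimated higher without replicate number 1 of both media (median 0.29). With the ribosomal share 7 of 9 were higher (median 0.14). Without QCM replicate 1, 12 in place of 9 passed the filter and 11 of the 12 were higher (median 0.40). A gene can pass the filter through 1 medium alone. Of those untested with all samples, Mx1, Usp18 and Gbp7 stood higher in SCM replicates 1 and 2 than in QCM replicates 2 and 3. In SCM replicate 3, Usp18 was below both of these QCM samples, Mx1 between them and Gbp7 above them. The values of Mx1, Usp18 and Gbp7 in SCM replicate 1 rest on 2, 3 and 6 UMIs. The 11 of 12 are thus no measure of direction. Of the 5 sensors, 4 were higher without QCM replicate 1 (median 0.33), 3 without replicate number 1 of both media (median 0.27) and 3 with the ribosomal share (median 0.034). Isg15, Ifit1, Ifit2, Ifit3, Ifi27 and Ifih1 were not analysed here.

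Of the listed genes estimated lower, Calr had the smallest p. This chaperone, part of the class I loading complex, stood at 324.4, 178.9 and 203.0 CPM in QCM and 114.4, 154.9 and 152.7 CPM in SCM, with no overlap and an estimate of -0.95 ± 0.33 (SE). As for B2m and H2-K1, QCM replicate 1 was on top, and the estimate was -0.48 without it and -0.31 with the ribosomal share as covariate. Irf8, a transcription factor of the interferon regulatory family, stood at 42.4, 42.1 and 45.4 CPM in QCM and 18.7, 29.4 and 37.4 CPM in SCM, again without overlap (-0.75 ± 0.27, SE). The QCM values of Irf8 were close to each other, and its estimate was -0.63 without QCM replicate 1, -0.46 with the ribosomal share in the fit and -0.43 without replicate number 1 of both media. H2-Q10, a class I heavy chain gene, stood at 99.1, 66.5 and 88.4 CPM in QCM and 42.5, 37.0 and 74.7 CPM in SCM, where SCM replicate 3 overlapped QCM. Its estimate was -0.89, and -0.24 with the ribosomal share in the fit.

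Of those estimated higher, Tlr3, a sensor of double-stranded RNA, stood at 11.5, 13.7 and 9.13 CPM in QCM and 22.6, 22.1 and 13.9 CPM in SCM (0.59 ± 0.26, SE), without overlap before TMM scaling and with overlap after it. Cd274, which encodes the checkpoint ligand PD-L1 and is induced by interferon, stood at 2.29, 3.34 and 3.06 CPM in QCM and 4.67, 4.52 and 4.85 CPM in SCM (0.55 ± 0.28, SE), with no overlap before or after TMM scaling. Tmem173, the sensor adaptor STING, had 64 UMIs in all and an estimate of 1.21 ± 0.57 (SE). The Tmem173 estimate ran from 0.23 to 1.69 over 16 alternatives, and from 0.90 to 1.69 with 1 library left out. The edgeR adjusted p was 0.927 for each of these 6 genes. Psmb9, the subunit that partners Psmb8, was at -0.73 ± 0.55, Tap2, the partner of Tap1, at -0.20 ± 0.39, Ciita at 0.20 ± 0.46 and H2-Eb1 at -0.62 ± 0.65 (SE), with 185 and 71 UMIs in all for the last pair. H2-Ab1 and H2-Aa, with 43 and 6 UMIs, did not pass the filter. Without QCM replicate 1 the estimates were -0.027 for Psmb9, 0.024 for Tap2, 0.015 for Ciita and -0.14 for H2-Eb1, each closer to 0 than with all samples, and Psmb9 was at -0.014 with the ribosomal share in the fit.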

How the data were processed

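Nuclei of 6 samples were sequenced by the authors from droplet libraries primed at the 3′ end, counted with Cell Ranger (version 2.1.1 in the submitters' processing notes) on mm10, filtered for outlying nuclei and clustered after integration across libraries. The values deposited are raw UMI counts for each gene in each nucleus. The deposited table of nuclei gives the cluster, the sample and the mitochondrial share as a fraction, which enters no test here. Symbols were matched for 31244 of 31319 identifiers. All nuclei were used, with no doublet call and no further filter.

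Nuclei are not replicates, so the counts of a sample, or of a cluster within a sample, were added up (at least 10 nuclei per sample and 2 samples per medium) and tested with edgeR 4.0.16 (quasi-likelihood, TMM, filterByExpr with a minimum count of 10) in R 4.3.3, adjusted by Benjamini-Hochberg over all genes or all gene and cluster pairs, at a threshold of 0.05. The edgeR fit over all nuclei and the cluster by medium term were run on simulated counts with planted changes larger than those of the members. Smaller changes, DESeq2, limma and the fits within clusters were not simulated. Alternatives used DESeq2 1.42.0, limma 3.58.1 (equal weight of 9 clusters, log2(CPM + 1)), other normalizations, no filter, samples left out, a replicate block and the ribosomal share. The SE of an edgeR estimate is not an output of edgeR. It was computed here as the absolute estimate over the square root of the F statistic. Levels within clusters used a pseudocount of 0.5 UMI. Shares of nuclei at 1000 UMIs are the expected values under thinning. A cluster was named from at least 3 markers at 2-fold and 5 CPM whose leading 10 genes held no markers of another type, which left cluster 1 unnamed. Tables were made in Python 3.11.15.

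The members, the marker lists, the limits for naming clusters and the wider gene list were chosen with earlier results of these data known. The genes named were the 8 members, the 3 listed genes with the smallest p in each direction, Ciita, H2-Aa, H2-Ab1, H2-Eb1, Psmb9 and Tap2, and the 2 genes most like each member across clusters, left out for the 3 members with the fewest UMIs. Some genes that this rule names are not reported here. Per sample, totals of 4071926 to 41035733 UMIs set the precision. The alternatives without shared barcodes and without cluster 1 were chosen after seeing the data.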

Additional observations from a re-analysis of the deposited data

How the results depend on the processing

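Of the pathway list 39 of 63 genes were estimated lower in SCM, against 26 of 66 without QCM replicate 1, when more genes passed the filter. No member was called over all nuclei under any of the 16 alternatives, and Irf1, B2m, H2-K1 and Nlrc5 kept their direction in all of them. Sizes moved more: with 1 library left out Nlrc5 ran from -1.55 to -0.20, Psmb8 from -1.77 to -0.49 and Psmb9 from -1.05 to -0.027. Over all nuclei DESeq2 called 20 genes in place of 0, and within clusters the calls were 6 with DESeq2, 110 with a replicate block and 2984 with no low-count filter in place of 0, with members called only in the last. Whether the replicate numbers pair the samples is not given in the labels. The correlation of same-numbered deviations was 0.30, 0.51 and -0.07, with the numbers 1 and 2 most like their own number. QCM replicate 3 was most like SCM replicate 1. The median mitochondrial share rose with the number, at 1.0%, 1.8% and 3.7% in QCM and 0.8%, 2.2% and 3.5% in SCM. These values leave pairing unsettled, and the samples were tested as unpaired. By number, SCM was higher in 0 pairs for B2m, H2-K1 and Psmb8 and 1 for H2-D1 and Nlrc5. It was higher in 2 for Cd74 and 3 for Irf1 and Tap1. With a replicate block B2m was at -1.12, H2-K1 at -0.84 and Irf1 at 0.32. The calls of a cluster against the other nuclei numbered 41 with library size alone, 173 with no filter, 101 without replicate number 1 of both media, 144 without the shared barcodes and 33 to 236 with any 1 library left out, in place of 20, with no member among them. Of the 286 values of 18 named genes under alternatives, 273 kept direction and side of the threshold and 13 turned sign. With the ribosomal share as covariate these were H2-D1 at 0.066, Psmb8 at 0.10, Ciita at -0.18, H2-Eb1 at 0.53 and Tap2 at 0.047. Tap2 was at 0.020 in the limma fit with equal weight of clusters, which also changes the scale, and Ciita at -0.29 without replicate number 1. With 1 library left out Tap1 ran from -0.15 to 0.43, Cd74 from -0.77 to 0.22, Ciita from -0.083 to 0.47 and Tap2 from -0.55 to 0.024. The log2 difference in the share of nuclei with Irf1 was 0.78 at 500 UMIs against 0.31 at 1000. The most similar genes kept 8 of 16 genes with Spearman correlation and 2 with summed counts. The cause was not tested for any of these. Depth limits Nlrc5, Cd74 and Psmb8, with 79 to 212 UMIs in all.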
